A study of Saccharomyces cerevisiae with 15 samples.

Results

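The aminoacyl-tRNA synthetases are the enzymes that join each amino acid to its own tRNA, and translation depends on them for every residue. Budding yeast needs a set of them in the cytosol, where nearly all proteins are made, and a set in mitochondria, where a few subunits of the respiratory chain are translated. Most mitochondrial enzymes have nuclear genes of their own, whereas HTS1, VAS1, ALA1 and GRS1 supply both compartments from the same gene. Here 34 synthetase genes were taken by name, 20 for cytosolic and 14 for mitochondrial enzymes. No rule on measured values was used, but earlier results of these data were known at the choice. Of these, 33 had a probe set that matches a single gene (19 cytosolic and 14 mitochondrial), out of 5449 genes so measured. The cysteinyl enzyme gene YNL247W was not analysed here. The prolyl enzyme of the cytosol, YHR020W, was not in the list and is described with the partner genes.

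All samples came from the wild-type, prototrophic S. cerevisiae strain YSBN6, grown in bioreactor batch cultures on glucose minimal medium with glutamine and proline as N-sources. In this N-downshift the cells used up glutamine and were left with proline, a poor N-source, and time 0 is when glutamine could no longer be detected in the broth. Total RNA of 3 independent cultures was hybridized to Affymetrix Yeast Genome 2.0 arrays at −10 min (steady state on glutamine), 7 min and 24 min. Culture 1 was also sampled at −5, 3, 10, 14, 56 and 120 min with a single array each, which makes 15 arrays. Times are those of the labels. The paper lists the samples labelled −10 min as actually taken somewhat earlier, at a time that differed between the cultures. Each value is a normalized intensity on a linear scale, and levels are compared only within a probe set, since probe sets differ in affinity.

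The synthetase probe sets were bright on every array, between 619 and 18859 units, where 95% of the probe sets for another organism on the same array lay below 68.1 on average. Across the 3 cultures at −10, 7 and 24 min, the CV had a median of 1.68% for the cytosolic and 3.91% for the mitochondrial transcripts, against 3.49% for all probe sets. The highest, 12.8%, was that of MSF1 at 7 min. Summed intensities per array were between 22691203 and 24045522. A bulk intensity is a share of the hybridized RNA, so fewer transcripts in every cell and fewer cells with the transcript cannot be told apart. Differences were tested with limma on log2 intensities, and a transcript was called where its p, adjusted by the Benjamini-Hochberg method across 5498 probe sets, was under 0.05. Every comparison with −10 min uses the same 3 arrays as its base.

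At 24 min the cytosolic and mitochondrial sets had moved apart. Of the 19 cytosolic transcripts, 18 fell relative to −10 min and 1, GUS1, rose. Of the 14 mitochondrial ones, 9 rose and none fell, while 5 were not called. None was lower at an unadjusted p under 0.05 either. The median log2 change was −0.55 over the cytosolic members and 0.22 over the mitochondrial members, against 0.09 over all probe sets. Among all probe sets, 35.2% were called lower and 46.9% higher in this comparison. The cytosolic share of falls (94.7%) was thus far above that of the genome. The mitochondrial share of rises (64.3%) was nearer to the genome's, and its excess depended on the fit. The number of mitochondrial rises was 7 without culture 1 or without culture 3, 10 without culture 2 and 13 after quantile normalization. All 3 cultures of 24 min lay below all 3 cultures of −10 min for 18 cytosolic members, and above them for GUS1 and for 12 of the 14 mitochondrial members. Among all probe sets, the cultures of 24 min lay wholly below those of −10 min for 36.2% and wholly above them for 48.3%.

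**Figure D1:**
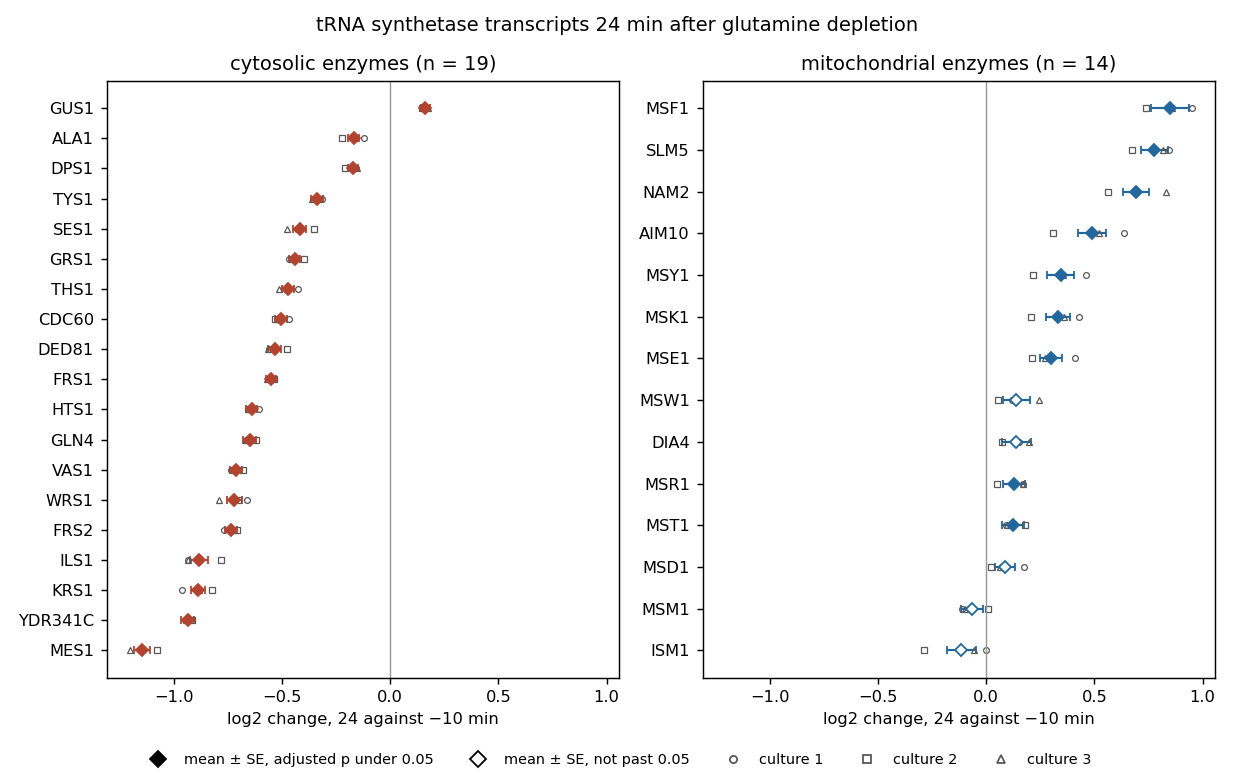
Log2 change of each measured tRNA synthetase transcript at 24 min against −10 min, cytosolic enzymes on the left and mitochondrial enzymes on the right. Diamonds are the means with the standard errors of the limma fit, filled where the adjusted p was under 0.05, and small symbols are the 3 cultures. All cytosolic transcripts but GUS1 lie below 0, whereas 12 of the 14 mitochondrial ones lie above it.

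MES1, the methionyl enzyme of the cytosol, had the largest fall. Its intensity was 4007, 4305 and 4080 in cultures 1, 2 and 3 at 24 min, against 8925, 9097 and 9394 at −10 min, so each culture had less than 50% of its own −10 min level. The log2 change was −1.15 ± 0.04 (SE, adjusted p = 3.38e-11, limma), or 45.2% of the −10 min level. The arginyl enzyme gene YDR341C had 6668, 6897 and 6723 units at 24 min, against 12856, 13000 and 12942 at −10 min. Cultures differed little at either time, and the log2 change was −0.94 ± 0.03 (adjusted p = 2.56e-11). KRS1, the lysyl enzyme, had 6578, 7143 and 6813 units at 24 min and 12833, 12631 and 12568 at −10 min (log2 change −0.89 ± 0.03, adjusted p = 6.78e-11).

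ILS1, the isoleucyl enzyme, had 6128, 7009 and 6413 units at 24 min, against 11709, 12052 and 12258 at −10 min. Culture 2 kept the highest level of the 3 cultures at 24 min, and the log2 change was −0.88 ± 0.04 (adjusted p = 1.06e-09). The phenylalanyl enzyme is built from subunits encoded by FRS1 and FRS2. FRS2, the alpha subunit, had 5000, 5257 and 5211 units at 24 min and 8512, 8585 and 8640 at −10 min (log2 change −0.73 ± 0.03, adjusted p = 1.82e-10). FRS1, the beta subunit, fell less, with a log2 change of −0.55 ± 0.02 (adjusted p = 4.3e-10). Whether the falls of the 2 subunits differed was not tested.

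The remaining cytosolic members fell over a wide range. WRS1 (tryptophanyl) changed by −0.72 on the log2 scale, VAS1 (valyl) by −0.71, GLN4 (glutaminyl) by −0.65 and HTS1 (histidyl) by −0.64. DED81 (asparaginyl), CDC60 (leucyl), THS1 (threonyl), GRS1 (glycyl), SES1 (seryl) and TYS1 (tyrosyl) followed, at between −0.53 and −0.34. DPS1 (aspartyl) and ALA1 (alanyl) had the smallest falls, both −0.17, at 88.7% and 89.0% of the −10 min level. For ALA1 the intensity was 11371, 10976 and 11332 at 24 min, against 12358, 12791 and 12706 at −10 min, so the cultures still did not overlap.

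GUS1, the glutamyl enzyme, was the exception. It had 17999, 17630 and 17956 units at 24 min, against 16066, 15930 and 15906 at −10 min. The rise was small and alike in all 3 cultures, with a log2 change of 0.16 ± 0.02 (adjusted p = 1.52e-05). Glutamyl-tRNA synthetase binds the cofactor protein ARC1 together with MES1 in yeast, so these partners moved in opposite directions. ARC1 itself had a log2 change of 0.06 ± 0.03 (adjusted p = 0.0401).

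The 4 genes that supply both compartments all fell at 24 min, with a median log2 change of −0.54. GUS1, whose enzyme is also imported into mitochondria, was set aside here. As it was the only cytosolic member that rose, the other 14 necessarily all fell, with a median of −0.60. Synthetases belong to a pair of structural classes with unrelated catalytic folds, and falls were found in both. In class I, 8 of 9 cytosolic members fell with a median log2 change of −0.71 that includes GUS1, and in class II 10 of 10 fell with a median of −0.50. Lower calls made up 35.2% of all probe sets.

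Among the mitochondrial enzymes, the largest rise was that of MSF1, the phenylalanyl enzyme of the organelle. Its intensity was 1197, 1143 and 1128 at 24 min, against 619, 685 and 622 at −10 min. The cultures at the later time lay well above those at −10 min, and the log2 change was 0.85 ± 0.09 (adjusted p = 1.43e-06), or 180.2% of the −10 min level. SLM5, the asparaginyl enzyme, had 1883, 1720 and 1874 units at 24 min and 1049, 1079 and 1063 at −10 min (log2 change 0.78 ± 0.06, adjusted p = 1.43e-07). NAM2, the leucyl enzyme that also acts in the splicing of mitochondrial introns, had 1906, 1829 and 1952 units at 24 min and 1189, 1237 and 1098 at −10 min (log2 change 0.69 ± 0.06, adjusted p = 3.7e-07). For SLM5 and NAM2 culture 2 was the lowest of the 3 at 24 min and the highest at −10 min.

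The same holds for AIM10, the prolyl enzyme, and MSY1, the tyrosyl enzyme. AIM10 had 2114, 1841 and 1940 units at 24 min, against 1360, 1487 and 1352 at −10 min (log2 change 0.49 ± 0.06, adjusted p = 1.7e-05). MSY1 had 1405, 1324 and 1366 units at 24 min, against 1021, 1140 and 1067 at −10 min (log2 change 0.34 ± 0.06, adjusted p = 0.000235). MSK1, the lysyl enzyme whose precursor also takes part in the import of a cytosolic tRNA, rose by a log2 change of 0.33, and MSE1, the glutamyl enzyme, by 0.30. MSR1 (arginyl) and MST1 (threonyl) were called with the smallest rises, 0.13 and 0.12, at adjusted p = 0.0366 and 0.042. The call for MSR1 was lost without culture 1, without culture 3 and with the culture as a block, and that for MST1 was lost whichever of the 3 cultures was left out.

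MSW1 (tryptophanyl), DIA4 (seryl) and MSD1 (aspartyl) had log2 changes of 0.14, 0.14 and 0.09 that were not called. MSM1 (methionyl) had −0.07 and ISM1 (isoleucyl) −0.11, also not called. In quantile-normalized values ISM1 and MSM1 turned to 0.17 and 0.10, the number of rises was 13 of 14 and the median log2 change of the mitochondrial members was 0.35. In class I, 4 of 7 mitochondrial members rose (57.1%) with a median log2 change of 0.14, and in class II 5 of 7 rose (71.4%) with a median of 0.33. Among all probe sets 46.9% were called higher, with a median of 0.09. Whether the classes differed was not tested.

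**Figure D2:**
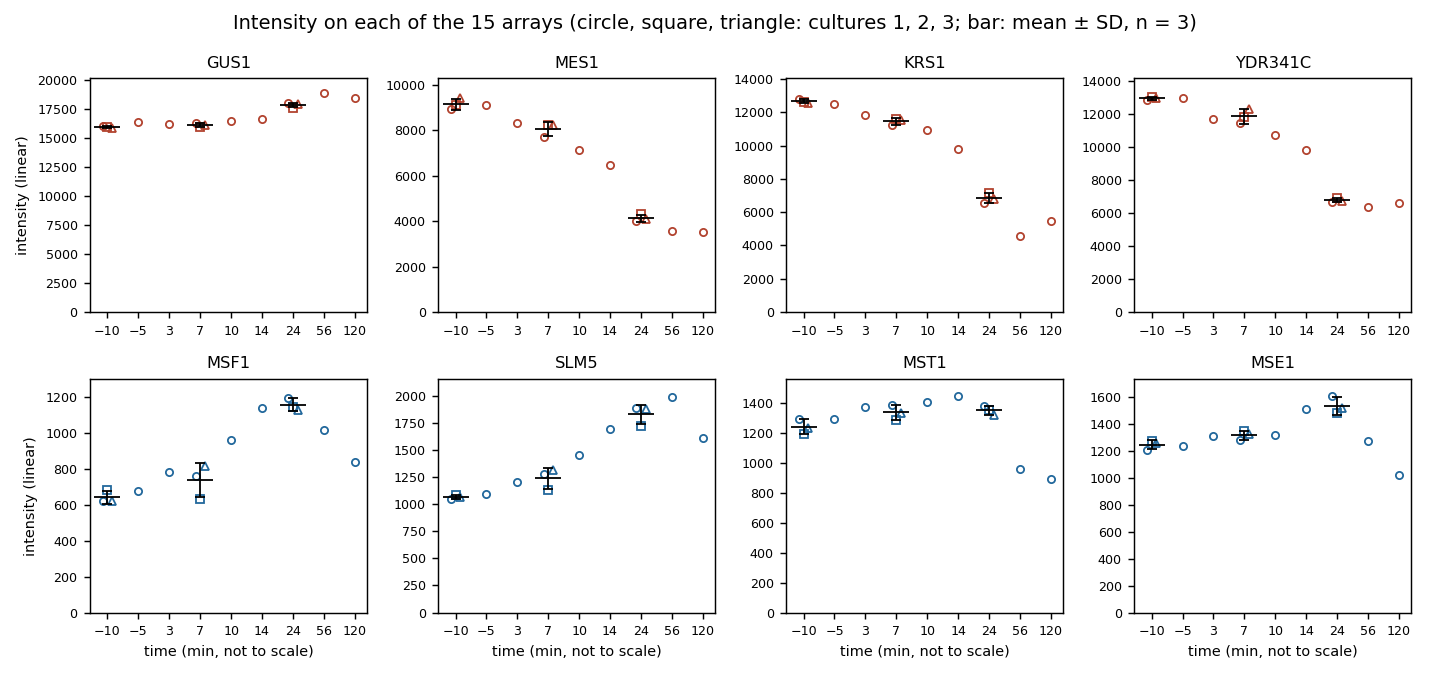
Intensity (linear scale, axis from 0) of 4 cytosolic and 4 mitochondrial synthetase transcripts on each of the 15 arrays against the sampled time in min (not to scale). Symbols mark the cultures, and horizontal bars with error bars are means ± SD of the 3 cultures at −10, 7 and 24 min. MES1, KRS1 and YDR341C drop between 14 and 24 min, GUS1 stays between 15906 and 18859, and MST1 and MSE1 are lower at 120 min than at −10 min.

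At 7 min, the first time after the shift with 3 cultures, changes were small. Of the cytosolic members 10 of 19 had fallen and none had risen, with a median log2 change of −0.07, where 20.9% of all probe sets were called lower and 18.5% higher and the median over all was −0.01. None of the cytosolic members rose at an unadjusted p under 0.05 either. MES1 was the furthest, with 7716, 8233 and 8206 units at 7 min, against 8925, 9097 and 9394 at −10 min. The groups did not overlap, and the log2 change was −0.18 ± 0.04 (adjusted p = 0.00217, limma). KRS1 had changed by −0.15, YDR341C by −0.13, and HTS1, GLN4 and VAS1 by −0.12 each. WRS1, FRS2, CDC60 and FRS1 were the others called, at −0.10 to −0.07. For 18 cytosolic members, all but GUS1, the cultures of 7 min lay wholly below those of −10 min, as they did for 29.5% of all probe sets.

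Of the mitochondrial members, 2 of 14 had risen at 7 min and none had fallen, with a median log2 change of 0.09. Rises were thus no more frequent (14.3%) than among all probe sets (18.5%). NAM2 had 1450, 1274 and 1365 units at 7 min, against 1189, 1237 and 1098 at −10 min (log2 change 0.22 ± 0.06, adjusted p = 0.015). SLM5 had 1274, 1128 and 1312 units at 7 min and 1049, 1079 and 1063 at −10 min (log2 change 0.22 ± 0.06, adjusted p = 0.0159). In both, culture 2 had moved least. Its median log2 change over the mitochondrial members was −0.04, while culture 1 had 0.11 and culture 3 had 0.16, so the cultures did not share a direction at this time. MSF1 went down in culture 2 and up in cultures 1 and 3, with 762, 634 and 818 units at 7 min, against 619, 685 and 622 at −10 min. At an unadjusted p under 0.05, 4 members were higher and 1, ISM1, was lower.

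The counts at 7 min depended on the scaling and on single cultures. With each array centred on its median, 2 cytosolic members were lower and 9 mitochondrial ones higher, and after quantile normalization 10 were lower and 10 higher. Of all calls at 7 min, 46.9% were higher as deposited, 63.1% after median centring and 55.7% after quantile normalization. The number of cytosolic falls was 1 without culture 1, 9 without culture 2 and 4 without culture 3. The number of mitochondrial rises was 0 without culture 1 or culture 3 and 7 without culture 2.

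Most of the change came between the replicated times. At 24 min against 7 min, 18 of 19 cytosolic members were lower and GUS1 was higher, with a median log2 difference of −0.49, while 29.9% of all probe sets were lower and 46.9% higher. MES1 had the largest step, −0.96 ± 0.04 (adjusted p = 3.09e-10). Of the 14 mitochondrial members, 8 were higher and 1 lower at 24 min than at 7 min, with a median log2 difference of 0.21. MSF1 (0.66), SLM5 (0.56) and NAM2 (0.48) led the rises. MSW1 was among those higher (0.19, adjusted p = 0.0134). MSM1 was the one lower, with 1210, 1224 and 1191 units at 24 min, against 1273, 1369 and 1351 at 7 min (adjusted p = 0.0237).

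Culture 1 gave the order of events, with 1 array per time, and the tests at these times assume the spread of the times with 3 cultures. At −5 min and at 3 min no synthetase was called, where 0.0182% and 3.69% of all probe sets were. At an unadjusted p under 0.05, none was lower or higher at −5 min, while 5 cytosolic members were lower and 1 mitochondrial member higher at 3 min. At 10 min 17 of 19 cytosolic members were lower and 7 of 14 mitochondrial members higher, against 25.5% and 25.6% of all probe sets. At 14 min 17 cytosolic members were lower and 8 mitochondrial members higher, against 29.4% and 38.2%. DPS1 and GUS1 were the cytosolic members not called at these 2 times. The median log2 change was −0.17 at 10 min and −0.24 at 14 min for the cytosolic members, and 0.13 and 0.25 for the mitochondrial ones. Relative to −10 min, the median log2 intensity of all probe sets was −0.049 at 7 min, −0.057 at 10 min and −0.017 at 14 min. Counts at 10 and 14 min under other scalings are not given here. The calls for TYS1, MST1 and MSY1 at 10 min were marginal (adjusted p = 0.0474, 0.0496 and 0.0498, limma).

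Within culture 1 the mitochondrial transcripts that changed most had come closer to their 24 min level by 14 min than such cytosolic ones. Over members whose 24 min change in this culture was at least 0.3 on the log2 scale, the median share of that change reached was 15.5% at 7 min, 25.6% at 10 min and 41.1% at 14 min for 16 cytosolic transcripts. For 7 mitochondrial transcripts it was 34.6%, 61.9% and 92.1%. At 14 min the cytosolic shares lay between 31.1% and 56.2% and the mitochondrial ones between 78.8% and 110.0%. The ranges of the members kept thus did not overlap in this culture. These shares come from culture 1 alone and are given without a test. In culture 2 at 7 min, AIM10, MSF1, MSK1 and MSY1 had log2 changes of −0.044, −0.112, −0.071 and −0.087, against their later rise. MSE1, NAM2 and SLM5 were above their −10 min level there, and in culture 3 all 7 mitochondrial transcripts were. The limit of 0.3 was set on the same 24 min values, and the ranges do not describe members below it. In culture 1 MES1 declined from the first array after the shift. Its intensities were 8925, 8307, 7716, 7110, 6455 and 4007 at −10, 3, 7, 10, 14 and 24 min. MSF1 had 619, 784, 762, 961, 1137 and 1197 units at these times.

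**Figure D3:**
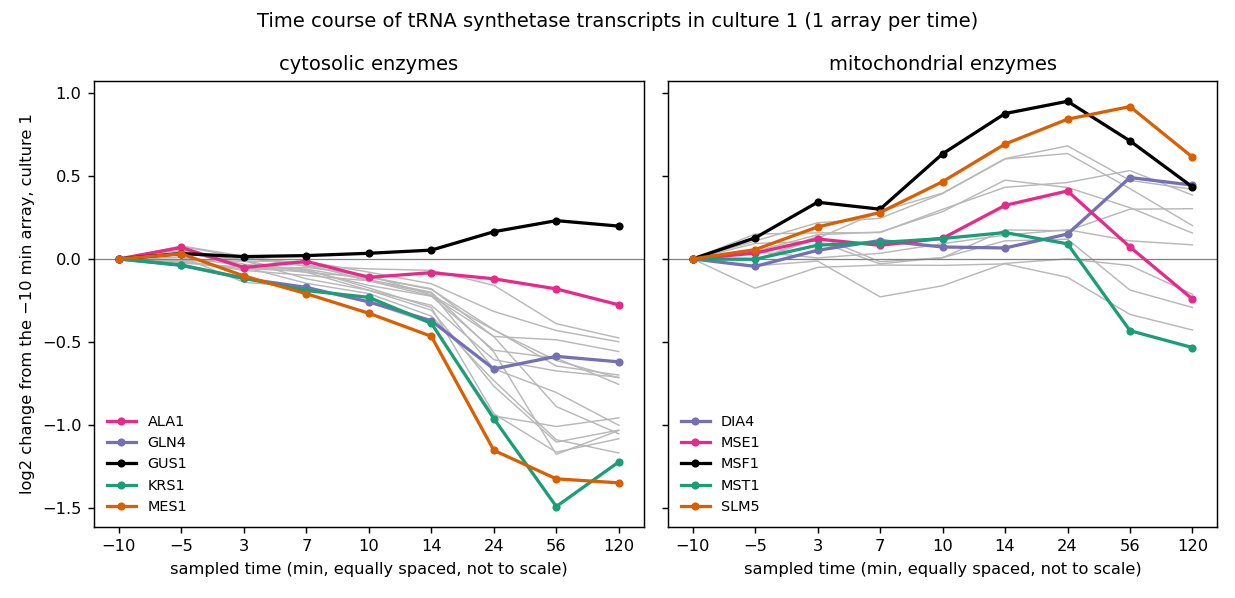
Log2 change from the −10 min array in culture 1 at each sampled time (min, equally spaced and not to scale), cytosolic members on the left and mitochondrial members on the right, 1 array per time. Coloured lines are the transcripts in the legends and grey lines the others. Cytosolic transcripts fall mainly after 14 min and KRS1 turns back up at 120 min, while mitochondrial transcripts spread to both sides of 0 at the late times.

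At 56 and 120 min the cytosolic set stayed low. The same 18 members were lower and GUS1 was higher than at −10 min at both times, with median log2 changes of −0.69 and −0.77. Among all probe sets, 29.7% were lower and 49.4% higher at 56 min, and 32.9% were lower and 44.4% higher at 120 min. In culture 1, 9 cytosolic members passed a 2-fold change at 24, 56 or 120 min and no mitochondrial member did. The largest change within this culture came at 120 min for 12 cytosolic members, at 56 min for 6 and at 24 min for GLN4.

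Relative to 24 min, 12 cytosolic members were lower at 56 min and 16 at 120 min, where 12.2% and 21.0% of all probe sets were lower and 32.6% and 30.2% higher. DED81 fell late, with a log2 change against −10 min of −0.53 at 24 min, −1.19 at 56 min and −1.05 at 120 min. CDC60 changed by −0.51, −0.93 and −1.09 at these times and VAS1 by −0.71, −1.09 and −1.17. KRS1 had its lowest level at 56 min, with 12833, 6578, 4557 and 5490 units at −10, 24, 56 and 120 min in culture 1. GLN4 and YDR341C had no further fall, with log2 differences of 0.05 and −0.03 at 120 min against 24 min that were not called. Relative to −10 min, the lowest of the 19 cytosolic members was KRS1 at 56 min (36.0%) and MES1 at 120 min (38.3%).

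The mitochondrial set held rises and falls at the late times. At 56 min 8 of 14 members were higher (57.1%) and 3 lower (21.4%) than at −10 min, against 49.4% and 29.7% of all probe sets, with a median log2 change of 0.29. At 120 min 6 were higher (42.9%) and 5 lower (35.7%), with a median of 0.15. These shares were near the 44.4% and 32.9% of all probe sets. Higher at 120 min were SLM5 (log2 change 0.59), DIA4 (0.45), NAM2 (0.44), MSF1 (0.38), MSY1 (0.31) and MSR1 (0.30). Lower were MST1 (−0.47), MSM1 (−0.38), MSW1 (−0.32), MSE1 (−0.29) and ISM1 (−0.23). AIM10, MSK1 and MSD1 were not called. In class I, 3 of 7 mitochondrial members were higher and 4 lower at 120 min, and in class II 3 of 7 were higher and 1 lower.

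Some members that were above their −10 min level at 24 min had thus gone below it. MST1 had 1293, 1194 and 1235 units in cultures 1, 2 and 3 at −10 min, 1378, 1352 and 1319 at 24 min, and in culture 1 958 at 56 min and 892 at 120 min. The log2 difference of 120 min against 24 min was −0.60 ± 0.07 (adjusted p = 2.71e-05). MSE1 had 1207, 1273 and 1256 units at −10 min, 1604, 1476 and 1518 at 24 min, 1269 at 56 min and 1021 at 120 min (log2 difference of 120 min against 24 min −0.58 ± 0.07, adjusted p = 2.75e-05). MSW1 had 1065, 1135 and 1048 units at −10 min, 1157, 1180 and 1241 at 24 min, 935 at 56 min and 869 at 120 min. For all 3 transcripts the 120 min array lay below every array at −10 min.

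DIA4 went the other way. It had 888, 894 and 875 units at −10 min, 986, 940 and 1004 at 24 min, 1249 at 56 min and 1210 at 120 min. It was the mitochondrial member called higher at 56 min and at 120 min than at 24 min (log2 differences 0.36 and 0.31, adjusted p = 0.00903 and 0.0163). After quantile normalization the call at 120 min was lost (0.18, adjusted p = 0.0637) and that at 56 min held (0.20, adjusted p = 0.0468). Against 24 min, 4 mitochondrial members were lower at 56 min (28.6%, against 12.2% of all probe sets) and 7 at 120 min (50.0%, against 21.0%). All late values rest on 1 array each, and variation between cultures at these times was not measured.

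For 13 amino acids the members include both enzymes, which allows the mitochondrial enzyme to be set against its cytosolic counterpart. Proline, with AIM10 and YHR020W, was not paired, as YHR020W was not in the list. Since FRS1 and FRS2 both pair with MSF1, there were 14 pairs. For each array the log2 intensity of the cytosolic probe set was subtracted from that of the mitochondrial one, and the change of this difference since −10 min was taken within each culture. A shift of a whole array cancels in this measure, but a scaling difference that depends on intensity does not. The pairs were not recomputed under other scalings, and the measure restates the changes given above for each member. At 24 min the difference had grown in all 3 cultures for all 14 pairs, with a median change of 0.96. Each pair had an exact two-sided permutation p of 0.1 without adjustment, the smallest that 3 arrays against 3 allow, so no pair could pass 0.05. This test exchanged arrays freely between the times and did not use the pairing within cultures.

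Among the 14 pairs, the change at 24 min was largest for phenylalanine. It was 1.58 ± 0.14 (SD, 3 cultures) for MSF1 against FRS2 and 1.40 ± 0.12 for MSF1 against FRS1. Asparagine (SLM5 against DED81, 1.31 ± 0.14), lysine (MSK1 against KRS1, 1.22 ± 0.18) and leucine (NAM2 against CDC60, 1.197 ± 0.133) came next. For methionine the change was 1.08 ± 0.03, where MES1 fell and MSM1 was not called. It was smallest for glutamate, where MSE1 and GUS1 both rose (0.25, 0.07 and 0.10 in cultures 1, 2 and 3), and for aspartate (MSD1 against DPS1, 0.26 ± 0.06). At 7 min 8 pairs had grown in all 3 cultures and 6 were mixed, with means between −0.09 for isoleucine and 0.29 for leucine and exact permutation p-values of 0.1 to 0.6. In culture 1, 13 of 14 pairs were above their −10 min difference at 56 min and at 120 min, and glutamate was below it (−0.16 and −0.44). The highest values at these times were those of SLM5 against DED81, 2.098 and 1.648.

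**Figure D4:**
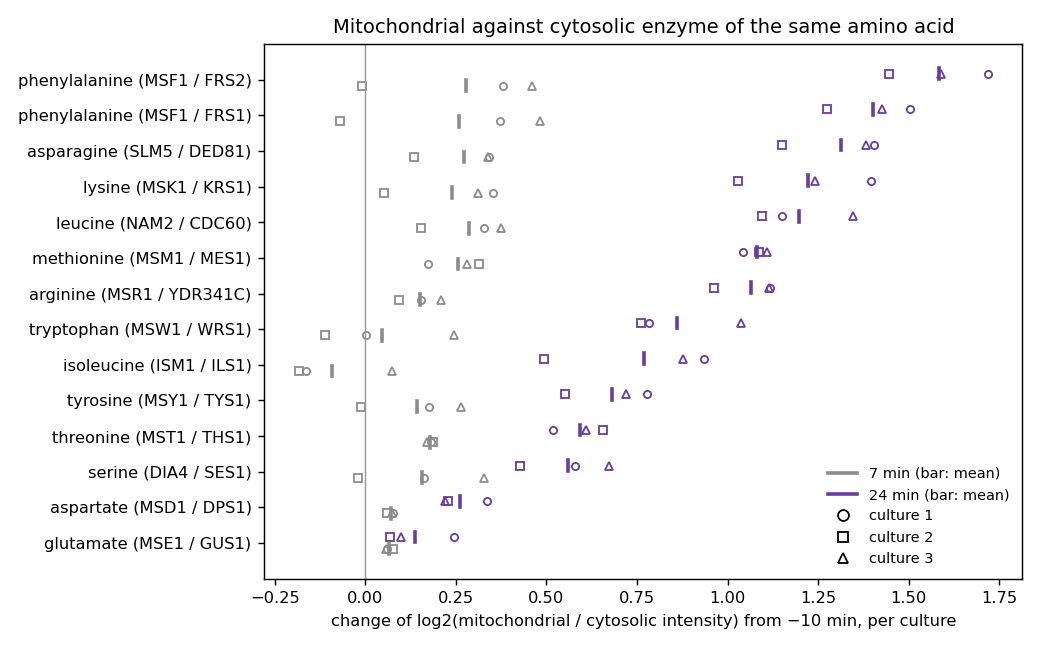
Change since −10 min of the log2 difference between the mitochondrial and the cytosolic enzyme of the same amino acid, for 14 pairs. Grey symbols are 7 min and purple symbols 24 min, symbols mark the 3 cultures and vertical bars their means. At 24 min all points lie above 0, from 0.07 in culture 2 for glutamate to 1.72 in culture 1 for phenylalanine.

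Genes grouped with the synthetases as partners did not move as a block. Of these 13, which include the synthetase gene YHR020W and the synthetase paralog GRS2, 4 were higher and 5 lower at 24 min than at −10 min. The median log2 change was −0.005. The shares were 30.8% higher and 38.5% lower, against 46.9% and 35.2% of all probe sets. YHR020W, the prolyl enzyme of the cytosol, had 3306 ± 165 units at 24 min and 10269 ± 165 at −10 min (SD, 3 cultures). Its log2 change of −1.64 (adjusted p = 2e-12) was below that of every cytosolic member of the list, MES1 included, and it was −1.40 at 120 min. GRS2, a paralog of the glycyl enzyme gene GRS1, rose by 0.68 on the log2 scale (adjusted p = 3.54e-08), where GRS1 fell by 0.44. TRZ1, which trims the 3′ end of tRNA precursors, had 216 ± 22 units at 24 min and 1842 ± 140 at −10 min, a log2 change of −3.10 (adjusted p = 1.16e-11). LOS1, which exports tRNA from the nucleus, changed by −1.195, PTH2, a peptidyl-tRNA hydrolase, by −0.52 and CCA1, which adds the CCA end, by −0.49.

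Yeast mitochondria make glutaminyl-tRNA by amidating glutamate on the tRNA, with an enzyme of 3 subunits. Its subunit genes PET112 (log2 change 0.67) and HER2 (0.29) rose at 24 min, and GTF1 (−0.06, adjusted p = 0.0969) was not called then and was higher at 120 min (0.56). PTH1 and FMT1 averaged 71.6 and 52.3 units at 24 min, near or below the background level of 68.1, and were not called.

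Other parts of translation gave a comparison for both sets. Of 8 mitochondrial translation factors, 5 were higher (62.5%, against 46.9% of all probe sets) and 3 were not called at 24 min, with a median log2 change of 0.29. MEF2, a protein of the elongation factor G family in mitochondria, had the largest change (1.47), followed by MRF1, a release factor (0.63), AIM23, an initiation factor (0.63), and TUF1, the elongation factor Tu (0.45). Among 73 genes for mitochondrial ribosomal proteins, 24 min gave 39 rises and 12 falls (median log2 change 0.11). The 53.4% that rose and that median were near the 46.9% and 0.09 of all probe sets. The 16.4% that fell were well below the 35.2% of all probe sets. At 120 min 14 rose (19.2%) and 30 fell (41.1%), with a median of −0.06, where 44.4% of all probe sets were higher and 32.9% lower. Of 7 cytosolic elongation factor genes, 1 (CAM1, 0.13) was higher and 4 lower at 24 min, among them YEF3 (−0.62) and TEF4 (−0.61). Lower calls made up 57.1% of these genes, against 35.2% of all probe sets.

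Cytosolic ribosomal protein genes often come as near-identical pairs, whose probe sets can bind both transcripts. All 128 were lower at 24 min, against 35.2% of all probe sets. Their median log2 change was −0.45, beside −0.55 for the cytosolic synthetases. At 120 min the ribosomal median was −1.34 and that of the synthetases −0.77. Against 24 min the median difference at 120 min was −0.80 for the ribosomal protein genes and −0.24 for the cytosolic synthetases, so the larger part of the ribosomal fall came after 24 min.

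Genes of amino acid synthesis under Gcn4, the transcription factor of general amino acid control, fell at 24 min as well. Of 44 listed genes, with the regulator genes GCN4 and LEU3 among them, 37 were lower (84.1%, against 35.2% of all probe sets) and 6 higher. The median log2 change was −0.50, close to that of the cytosolic synthetases. The largest falls were those of HOM3 (−2.04), LYS4 (−1.62), ILV5 (−1.46) and ARG8 (−1.27), enzymes of threonine and methionine, lysine, branched-chain amino acid and arginine synthesis. The GCN4 transcript itself, counted among the 37, changed by −0.12 ± 0.02 (adjusted p = 0.000228) at 24 min. The Gcn4 protein is known to be controlled mainly at translation, which arrays do not measure. At 120 min 32 of the 44 were lower (72.7%) and 8 higher (18.2%), against 32.9% and 44.4% of all probe sets.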

How the data were processed

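RNA was measured on 15 Affymetrix Yeast Genome 2.0 arrays of the N-downshift. The authors deposited, for each array, a linear intensity per probe set, from perfect-match probes after RMA background correction, QSPLINE normalization of the shift's arrays together and summarization by Li-Wong. Per the submitters' processing notes, R 2.10.0, affy and RMA were used. Of 10928 probe sets, the 5498 annotated with a single S. cerevisiae gene were tested (5449 genes). No synthetase had a further probe set or a suffix for shared probes.

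The log2 of each intensity, with nothing added, entered a limma 3.58.1 fit (R 4.3.3) that has a mean for every sampled time and leaves 6 residual degrees of freedom. Its eBayes step let the spread follow intensity. Benjamini-Hochberg adjustment ran over the 5498 probe sets of a comparison. The fit was tested on simulated data. Culture numbers come from the experiment label, and same-numbered samples share a bioreactor, so the numbers pair the samples. Deviations of same-culture samples correlated by −0.271 to 0.189, and duplicateCorrelation (statmod 1.5.0) gave −0.00642. Alternatives were median centring, quantile normalization, the culture as a fixed or random block, 50 units added, filters on dim and shared probes, no trend, only the times compared, and each culture left out.

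The members and lists were chosen with earlier results of these data known. Every member may be named. Values on each array are given for the 5 largest changes in each direction within each set at 24 min, for members called against their set's direction and for those that changed direction by 120 min. ALA1, DIA4 and MSM1 were added after their values were seen. Of each list, up to 4 genes with the largest changes at 24 min and those with a role beside a member are named, the latter chosen after their values were seen.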

Additional observations from a re-analysis of the deposited data

How the results depend on the processing

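At 24 min against −10 min, 18 cytosolic members were lower under each of the 12 alternatives, and 7 to 13 mitochondrial members were higher. At 24 against 7 min 17 or 18 and 6 to 12 were. At 7 min the calls depended on the processing. The count of lower cytosolic members, 10 as deposited, was 2 with median centring, 6 without the trend, 7 with the culture as a replicate block, 14 with only the arrays of the times compared and 1 to 9 with a culture left out. The count of higher mitochondrial members, 2 as deposited, was 9 with median centring, 10 with quantile normalization and 0 to 7 with a culture left out. With the culture as a block, the pairing of samples gave 8 mitochondrial rises at 24 min, 1 fewer (MSR1), and changed no other count at 24 min.

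The median log2 change of the cytosolic members at 7 min (−0.072) was −0.024 with median centring and −0.086 to −0.072 with a culture left out. At 24 min it was −0.55 as deposited and −0.63 after quantile normalization, and that of the mitochondrial members 0.22 and 0.35. Mitochondrial members higher than at 24 min numbered 1 at 56 and 1 at 120 min, 2 and 2 without the trend, and 0 at 120 min after quantile normalization, where DIA4 lost its call. Changes that turned sign had not been called. They were ISM1 (0.17) and MSM1 (0.10) at 24 min after quantile normalization, and at 7 min MSD1 (−0.0004 to 0.0457), MSR1 (−0.0315 to 0.0587) and MSW1 (−0.1284 to 0.0315) over the fits without a culture. The cause of these differences was not tested.

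The replacement of a probe set by another of the same gene was not run, as no member has a second one. Promoter motifs and protein features were not analysed here. Late times have 1 array each, no depth is defined for arrays, and their number limits the precision.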
